A study of Mus musculus with 4 samples.

Results

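The R-spondin receptor module was followed through 4 sorted populations of mouse intestinal tumour cells. It was taken as 10 genes: the R-spondin receptors Lgr4, Lgr5 and Lgr6, the ubiquitin ligases Rnf43 and Znrf3, the Wnt co-receptors Lrp5 and Lrp6, the Frizzled receptors Fzd5 and Fzd7, and the Wnt-binding pseudokinase Ptk7. Every probe whose transcript accession belongs to one of them was used, which gave 15 probes, and all 10 genes were among the 22911 genes that could be named on the array.

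Wnt ligands signal by joining a Frizzled receptor to the co-receptor Lrp5 or Lrp6, which keeps beta-catenin from being destroyed. Rnf43 and Znrf3 sit in the same membrane and mark Frizzled receptors for removal, so they dampen the signal. R-spondins bind an Lgr receptor together with one of the ligases and clear the ligase from the surface, which leaves more Wnt receptor in place. In the intestine Lgr5 marks the crypt base stem cells, and Rnf43, Znrf3 and Lgr5 are themselves known targets of beta-catenin.

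The study compared Lgr5 and a tuft cell marker, named in the design text as IL17RB, as sorting markers of tumour cells. All 4 populations were EpCAM+ cells of tumours from Lgr5CreERT2/+; Ctnnb1lox(ex3)/ox(ex3) mice (spelled as in the labels), taken 14 days after tamoxifen. They were Lgr5+tuft marker+ (double-positive below), Lgr5+tuft marker- (Lgr5 single-positive), Lgr5-tuft marker+ (tuft single-positive) and Lgr5-tuft marker- (double-negative) cells. Each population was read on 1 one-colour Agilent array from 13 ng of total RNA. The animals' age and number and the part of the intestine are not given in the sources used here. All 4 groups therefore shared 1 Lgr5 allele that carries CreERT2, whose recombinase acts only after tamoxifen and in cells that use the Lgr5 locus, and the floxed exon 3 of Ctnnb1, whose loss stabilises beta-catenin downstream of every receptor described here. There was no untreated or tumour-free group. With 1 array per population no difference has a replicate check, so no test was made. The errors given are those the scanner software attached to each spot, and cover neither the sort, the amplification nor the animals.

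The arrays had between 60.2% and 69.0% of their spots well above background, and between 15327 and 17157 genes with at least 1 such probe. A level is log2 of the processed intensity minus the 75th percentile of that array, so 0 is the 75th percentile. Levels are compared between populations for 1 probe at a time and never between genes. A gene with several probes is represented by its brightest probe. A difference of at least 2-fold, which is 1 on the log2 scale, was counted. All 14 epithelial marker genes examined were well above background on all 4 arrays, and their summed scaled signal was 347, 245, 265 and 304 in the double-positive, Lgr5 single-positive, tuft single-positive and double-negative cells. In these bulk samples fewer cells of a type and less RNA per cell cannot be told apart.

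The module did not move as a block. Five-prime flanking sequence is shown first for 4 members with the patterns that recur below: Lgr4 and Rnf43, which were lowest in tuft single-positive cells, and the paired Frizzled genes Fzd5 and Fzd7, which at the 75th percentile scaling were lower in both tuft marker+ populations. Relative to epithelial markers the tuft marker difference of Fzd7 within Lgr5- cells was 0.03 and that of Fzd5 was -0.38. Each sequence is the 250 bases before the annotated start, on the strand of the gene, from the RefSeq promoter table of GRCm38.p6. CCAAT boxes and GGGCGG boxes, read on either strand, are in capitals. These motifs and TATAAA were chosen after the windows were seen.
Lgr4, chr2:109917397-109917646, plus strand: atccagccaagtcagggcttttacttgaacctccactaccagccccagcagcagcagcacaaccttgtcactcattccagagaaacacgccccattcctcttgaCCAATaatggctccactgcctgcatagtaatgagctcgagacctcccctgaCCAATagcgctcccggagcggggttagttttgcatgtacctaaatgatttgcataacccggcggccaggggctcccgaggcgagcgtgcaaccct
Rnf43, chr11:87662837-87663086, plus strand: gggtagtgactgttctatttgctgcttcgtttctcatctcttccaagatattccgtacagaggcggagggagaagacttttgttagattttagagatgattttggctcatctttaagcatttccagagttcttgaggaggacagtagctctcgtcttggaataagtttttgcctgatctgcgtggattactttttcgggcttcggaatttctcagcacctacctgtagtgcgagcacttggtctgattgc
Fzd5, chr1:64737751-64738000, minus strand: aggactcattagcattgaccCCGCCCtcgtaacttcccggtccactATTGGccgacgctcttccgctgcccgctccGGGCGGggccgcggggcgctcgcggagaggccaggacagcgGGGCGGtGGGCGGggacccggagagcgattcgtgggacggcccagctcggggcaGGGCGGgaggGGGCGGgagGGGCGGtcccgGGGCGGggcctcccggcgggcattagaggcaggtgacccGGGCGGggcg
Fzd7, chr1:59481897-59482146, plus strand: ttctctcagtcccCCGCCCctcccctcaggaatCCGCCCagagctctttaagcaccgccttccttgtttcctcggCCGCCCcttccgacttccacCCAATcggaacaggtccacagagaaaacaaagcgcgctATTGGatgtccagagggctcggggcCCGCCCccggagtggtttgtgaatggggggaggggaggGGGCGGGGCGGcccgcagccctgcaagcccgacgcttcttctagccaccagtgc
The Fzd5 sequence held 9 GGGCGG matches and 1 CCAAT match, and the Fzd7 sequence held 6 and 2. The Lgr4 sequence held 2 CCAAT matches and no GGGCGG, and the Rnf43 sequence held neither. CCAAT occurred in 33.8% and GGGCGG in 32.7% of all 32851 RefSeq windows of 250 bases.

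The RefSeq table gave windows for 6 of the 10 genes, 7 windows in all, with entries for Lgr4, Lgr6, Rnf43, Fzd5, Fzd7 and Ptk7. The T-cell factor motif, the DNA element bound by the partners of beta-catenin, was searched as CTTTGAA and CTTTGAT on both strands. It was found in 0 of the 7 windows, against 7.48% of all windows of 250 bases, and in 0 of 7 when the window ran 50 bases past the start, against 8.65% of all windows of 300 bases. TATAAA was also found in 0 of the 7 windows, against 12.4% of all windows. These letters are a description of a short stretch and not of binding. The share of G and C was 76.4% in the Fzd5 window, 65.2% in the Fzd7 and in the Lgr6 window, 64.0% in Ptk7, 55.6% in Lgr4 and 44.4% in the printed Rnf43 window. In the RefSeq assembly Fzd5, Fzd7 and Lgr6 lie on chromosome 1, Rnf43 and Znrf3 on chromosome 11, Lgr4 on 2, Lrp6 on 6, Lgr5 on 10, Ptk7 on 17 and Lrp5 on 19.

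Lgr5, a sorting marker, serves as a check of the labels and not as a finding. Its single probe (A_55_P2126192) had levels of -0.80 in double-positive, -0.81 in Lgr5 single-positive and -3.20 in double-negative cells, and was not well above background in tuft single-positive cells, where its measured level was -5.84. The Lgr5+ populations were higher on both sides of the tuft marker, which is the order the labels give. The difference was 2.39 ± 0.31 (scanner error) or 5.23-fold between the tuft marker- populations, and at least 2.87 or at least 7.32-fold between the tuft marker+ populations, where the dim side was set at the array's lowest level well above background. Between the 2 Lgr5+ populations it differed by 0.02 ± 0.21, so tuft marker+ and tuft marker- cells of the Lgr5+ gate carried Lgr5 transcript at levels that the scanner error does not separate. The double-negative cells retained a measurable Lgr5 signal of 15.7 processed intensity units, against 100.3 in the Lgr5 single-positive cells and 2.36 in the tuft single-positive cells.

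Lgr4, the broadly expressed R-spondin receptor of the crypt, was low in 1 population. Its brightest probe (A_52_P276727) gave 2.56 in double-positive, 2.92 in Lgr5 single-positive, 1.29 in tuft single-positive and 2.76 in double-negative cells. The first 2 and the last could not be ordered within 2 scanner errors between neighbours, whereas the tuft single-positive cells lay 1.27 ± 0.20 below the next population. Against double-negative cells this was a difference of -1.47 ± 0.20 or 2.78-fold. The other probe (A_52_P278566) read 0.56, 1.47, -0.42 and 1.20 in the same order of populations and gave -1.61 ± 0.21 for that difference. Within the Lgr5+ cells the probes gave -0.36 and -0.90 for tuft marker+ minus tuft marker-, so there the sign was shared and the size was not.

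Lgr6, an R-spondin receptor best known from skin stem cells, followed another order. Its probe (A_52_P616580) had levels of -0.22 in double-positive, 1.08 in Lgr5 single-positive, 0.28 in tuft single-positive and 0.30 in double-negative cells. It was thus highest in Lgr5 single-positive cells, lowest in double-positive cells and equal within the error in the 2 Lgr5- populations. The difference within the Lgr5+ cells was -1.30 ± 0.21 or 2.46-fold lower with the tuft marker, and within the Lgr5- cells it was -0.02 ± 0.21. Relative to epithelial markers the difference within the Lgr5- cells became 0.77, so the equal levels there depend on the scaling. The lowest levels of Lgr4 and Lgr6 thus lay in different populations, the tuft single-positive and the double-positive cells.

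**Figure D1:**
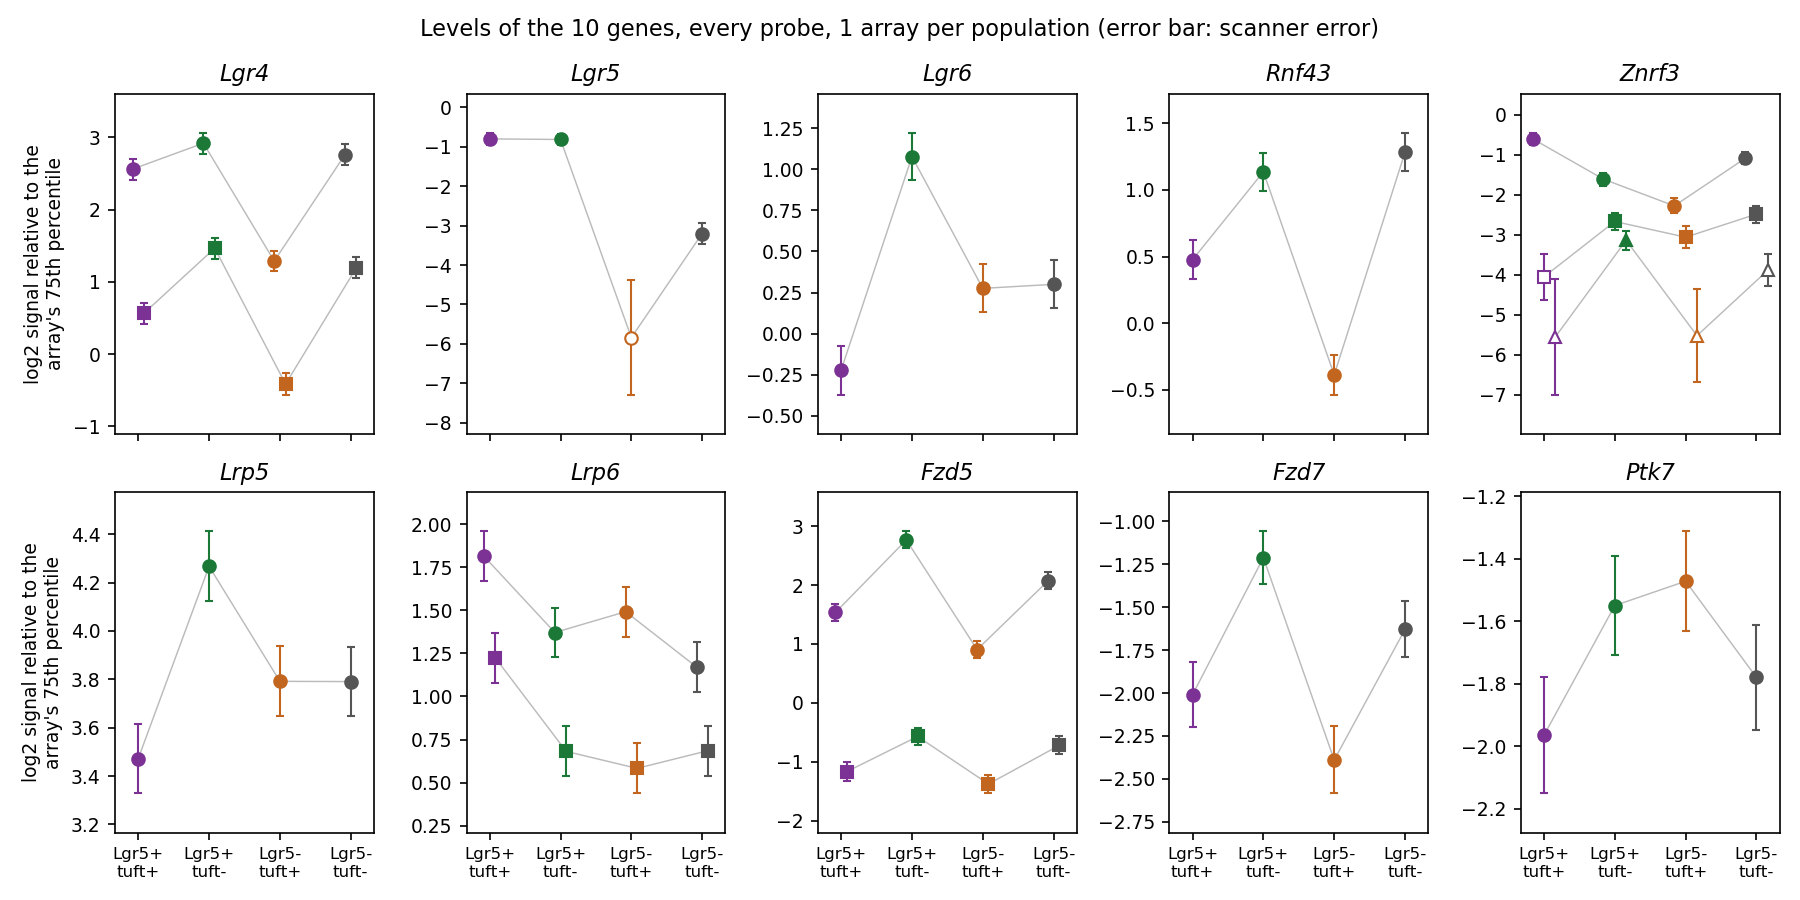
Level of each of the 10 genes (vertical axis, log2 of processed intensity minus the array's 75th percentile) in the 4 populations. Each point is 1 array, bars are the scanner error, all probes of a gene are drawn, and open points were not well above background. At this scaling Lgr4, Rnf43, Fzd5 and Fzd7 are lowest in the tuft single-positive cells, where relative to epithelial markers Fzd7 is level with the double-negative cells (0.03), Lgr5 separates by its own gate, and Lrp5, Lrp6 and Ptk7 stay within 2-fold.

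The plot of levels by population shows the same contrast among the ligases. Rnf43, which removes Frizzled receptors from the cell surface, had levels of 0.48 in double-positive, 1.14 in Lgr5 single-positive, -0.39 in tuft single-positive and 1.28 in double-negative cells (probe A_51_P337101). Both tuft marker- populations were above both tuft marker+ populations, and the 2 tuft marker- populations differed by less than 2 scanner errors. The tuft marker difference was -0.66 ± 0.21 within Lgr5+ cells and -1.67 ± 0.21, or 3.18-fold lower, within Lgr5- cells. The Lgr5+ minus Lgr5- difference was 0.86 ± 0.21 among tuft marker+ cells and -0.15 ± 0.20 among tuft marker- cells.

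Znrf3, the paralogous ligase, gave different answers from its 3 probes. The brightest (A_65_P09639) read -0.60 in double-positive, -1.61 in Lgr5 single-positive, -2.28 in tuft single-positive and -1.09 in double-negative cells, and each neighbouring pair in that order of level was separated by more than 2 scanner errors. On this probe the tuft marker difference was 1.01 ± 0.22 within Lgr5+ cells and -1.19 ± 0.24 within Lgr5- cells, and double-positive cells were 1.68 ± 0.24 above tuft single-positive cells. The second probe (A_66_P136072) read -4.05, -2.67, -3.06 and -2.49 and the third (A_52_P234039) read -5.55, -3.14, -5.52 and -3.89. The second was not well above background in double-positive cells, and the third was well above background only in Lgr5 single-positive cells. Neither had its highest level in double-positive cells. With the dim side at the array's lowest level well above background, their tuft marker differences within Lgr5+ cells were -0.76 and -0.29, both lower bounds on the size. The probes' differences within Lgr5+ cells spanned 1.77, with 2 of the 3 being bounds. The Znrf3 values given below are those of the brightest probe and do not stand for the transcript as a whole.

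The co-receptors moved little. Lrp5 (A_66_P104713) had levels of 3.47, 4.27, 3.79 and 3.79 in double-positive, Lgr5 single-positive, tuft single-positive and double-negative cells. At that scaling it stood apart only in the Lgr5 single-positive cells, which were 0.79 ± 0.20 above the double-positive cells, a 1.73-fold difference and the full range of the gene. Relative to epithelial markers the tuft marker difference of Lrp5 within Lgr5- cells became 0.79. Its Lgr5 difference among tuft marker+ cells became -0.93. Lrp6 read 1.81, 1.37, 1.49 and 1.17 on its brighter probe (A_55_P2118391) and 1.22, 0.68, 0.58 and 0.69 on the other (A_55_P2041360). Both probes were highest in double-positive cells, by 0.44 ± 0.20 and 0.54 over the Lgr5 single-positive cells, so the 2 co-receptors differed in sign within the Lgr5+ cells. Ptk7, a Wnt-binding pseudokinase of planar polarity signalling, read -1.96, -1.55, -1.47 and -1.78 (A_51_P496381), had no neighbouring pair separated by more than 2 scanner errors, and had the smallest range of the 9 genes above background on all arrays, 0.49.

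Fzd5 was the one member at least 2-fold lower with the tuft marker on both sides of the Lgr5 gate. Fzd5, a Frizzled receptor needed for the maturation of Paneth cells in the crypt, read 1.54 in double-positive, 2.77 in Lgr5 single-positive, 0.90 in tuft single-positive and 2.07 in double-negative cells (A_66_P128199). On this probe the 4 levels were each separated from the next by more than 2 scanner errors. Both tuft marker+ populations were below both tuft marker- populations, and within each tuft class the Lgr5+ cells were above the Lgr5- cells. The tuft marker difference was -1.23 ± 0.20 (2.35-fold) within Lgr5+ and -1.17 ± 0.20 (2.24-fold) within Lgr5- cells. The second probe (A_51_P166456) read -1.17, -0.57, -1.38 and -0.72 and gave the same order of the populations with smaller tuft marker differences of -0.60 and -0.66. Its Lgr5 differences, 0.21 ± 0.23 among tuft marker+ and 0.15 ± 0.21 among tuft marker- cells, were within 2 scanner errors. Relative to epithelial markers those of the brighter probe became 0.02 and 1.03. Within Lgr5- cells the tuft marker difference of the brighter probe passed 2-fold in 7 of 12 alternative settings. The detection and floor settings among the 12 could not change it, since Fzd5 was above background on all arrays. It was -0.87 in the authors' deposited values, -0.99 with normexp and quantile normalization, -0.91 with the mean of the probes and -0.38 relative to epithelial markers.

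Fzd7, the Frizzled receptor reported to carry Wnt signals in intestinal stem cells, had the same order of populations as Fzd5 at lower amplitude. No neighbouring pair in the order of Fzd7 was separated by more than 2 scanner errors. Its probe (A_52_P552665) read -2.01, -1.21, -2.39 and -1.63 in double-positive, Lgr5 single-positive, tuft single-positive and double-negative cells. The tuft marker difference was -0.80 ± 0.24 within Lgr5+ and -0.76 ± 0.25 within Lgr5- cells, each past 2 scanner errors and neither reaching 2-fold. With normexp and quantile normalization these became -0.35 and -0.35, and with normexp and the 75th percentile -0.30 and -0.26. The Lgr5 difference of 0.38 ± 0.27 among tuft marker+ cells and 0.42 ± 0.22 among tuft marker- cells stayed within 2 scanner errors.

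**Figure D2:**
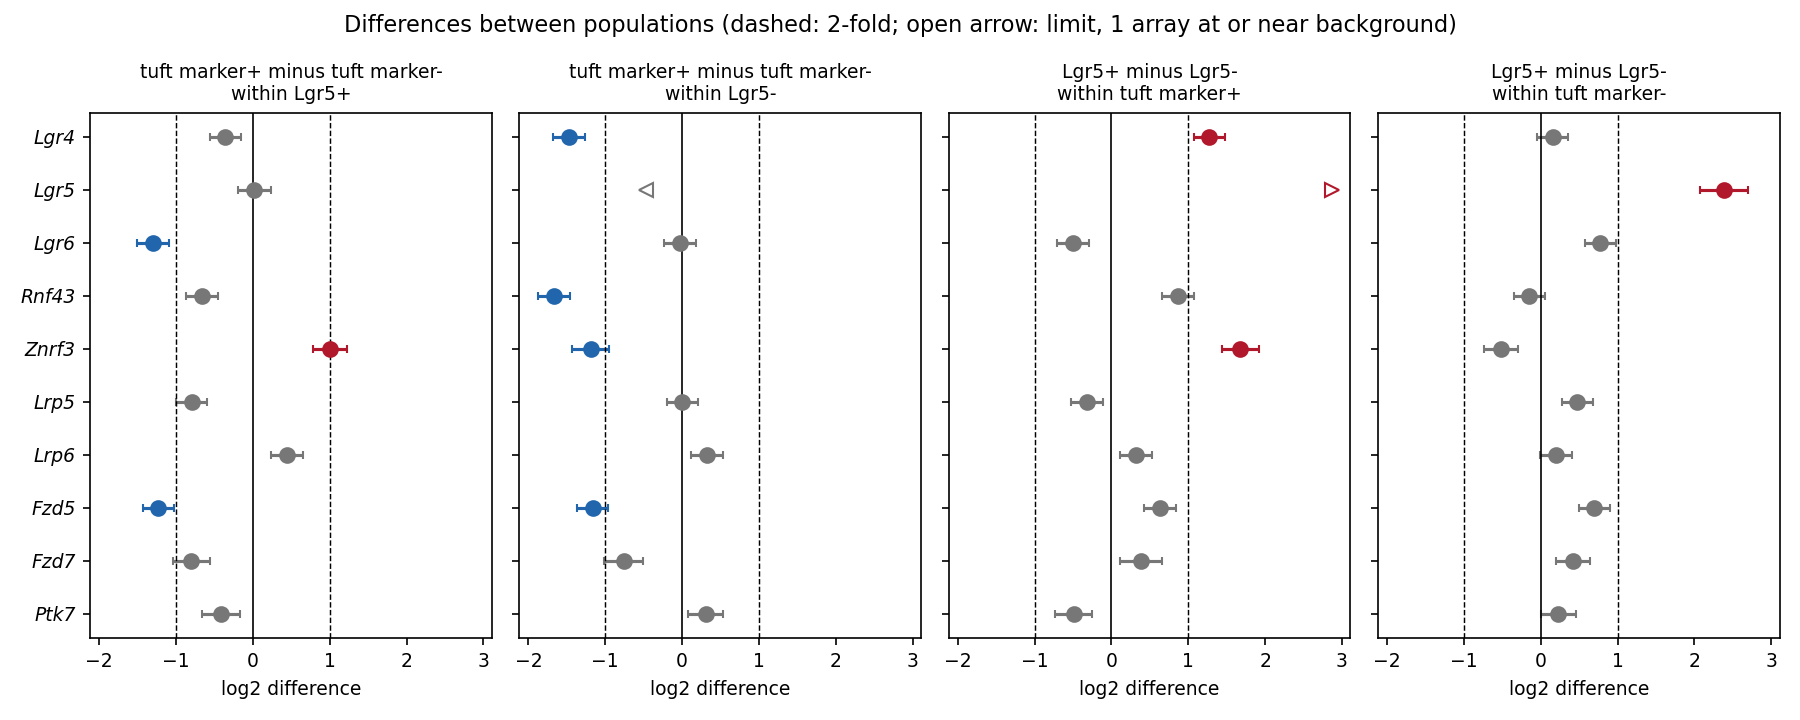
Difference of each of the 10 genes (log2, bars are the combined scanner error) in the 4 comparisons of populations, with the 2-fold limits as lines. Only the brightest probe of each gene is drawn. Open arrows without a bar are limits, where 1 array was at or near background. Members lower with the tuft marker within Lgr5- cells are Rnf43, Lgr4, Znrf3 and Fzd5 at the 75th percentile scaling; relative to epithelial markers every value in that comparison is higher by 0.79, and none of them reaches 2-fold.

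The differences by comparison can be counted against the whole array. Within Lgr5+ cells 1 of the 10 genes was at least 2-fold higher with the tuft marker (Znrf3), where 10.3% of all 17501 genes measured were, and 2 were lower (Fzd5 and Lgr6), where 8.19% were. Within Lgr5- cells no member was higher, where 16.4% of genes were, and 4 were lower (Rnf43, Lgr4, Znrf3 and Fzd5), where 12.2% were. Among tuft marker+ cells 3 members were higher with Lgr5 (Lgr5, Znrf3 and Lgr4), where 8.86% of genes were, and none was lower, where 11.4% were. Among tuft marker- cells Lgr5 itself was higher, where 6.5% of genes were, and none was lower, where 5.24% were. Without Lgr5, whose own gate made the second axis, these were between 0 and 4 genes a comparison, too few to be read as particular to the module.

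The median difference of the 10 genes was -0.54 and -0.61 with the tuft marker within Lgr5+ and Lgr5- cells, and 0.51 and 0.32 with Lgr5 within tuft marker+ and tuft marker- cells, beside 0.00, 0.08, -0.04 and 0.00 over all genes measured. The medians with Lgr5 include Lgr5 itself, whose gate made that axis and whose differences were at least 2.87 and 2.39. The comparisons share arrays, so these 4 medians are not independent of one another. The sign of 2 of the 4 depended on the scaling: relative to the epithelial markers, the median within Lgr5- cells became 0.17 and that among tuft marker+ cells became -0.10, while the other 2 became -0.69 and 0.66.

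**Figure D3:**
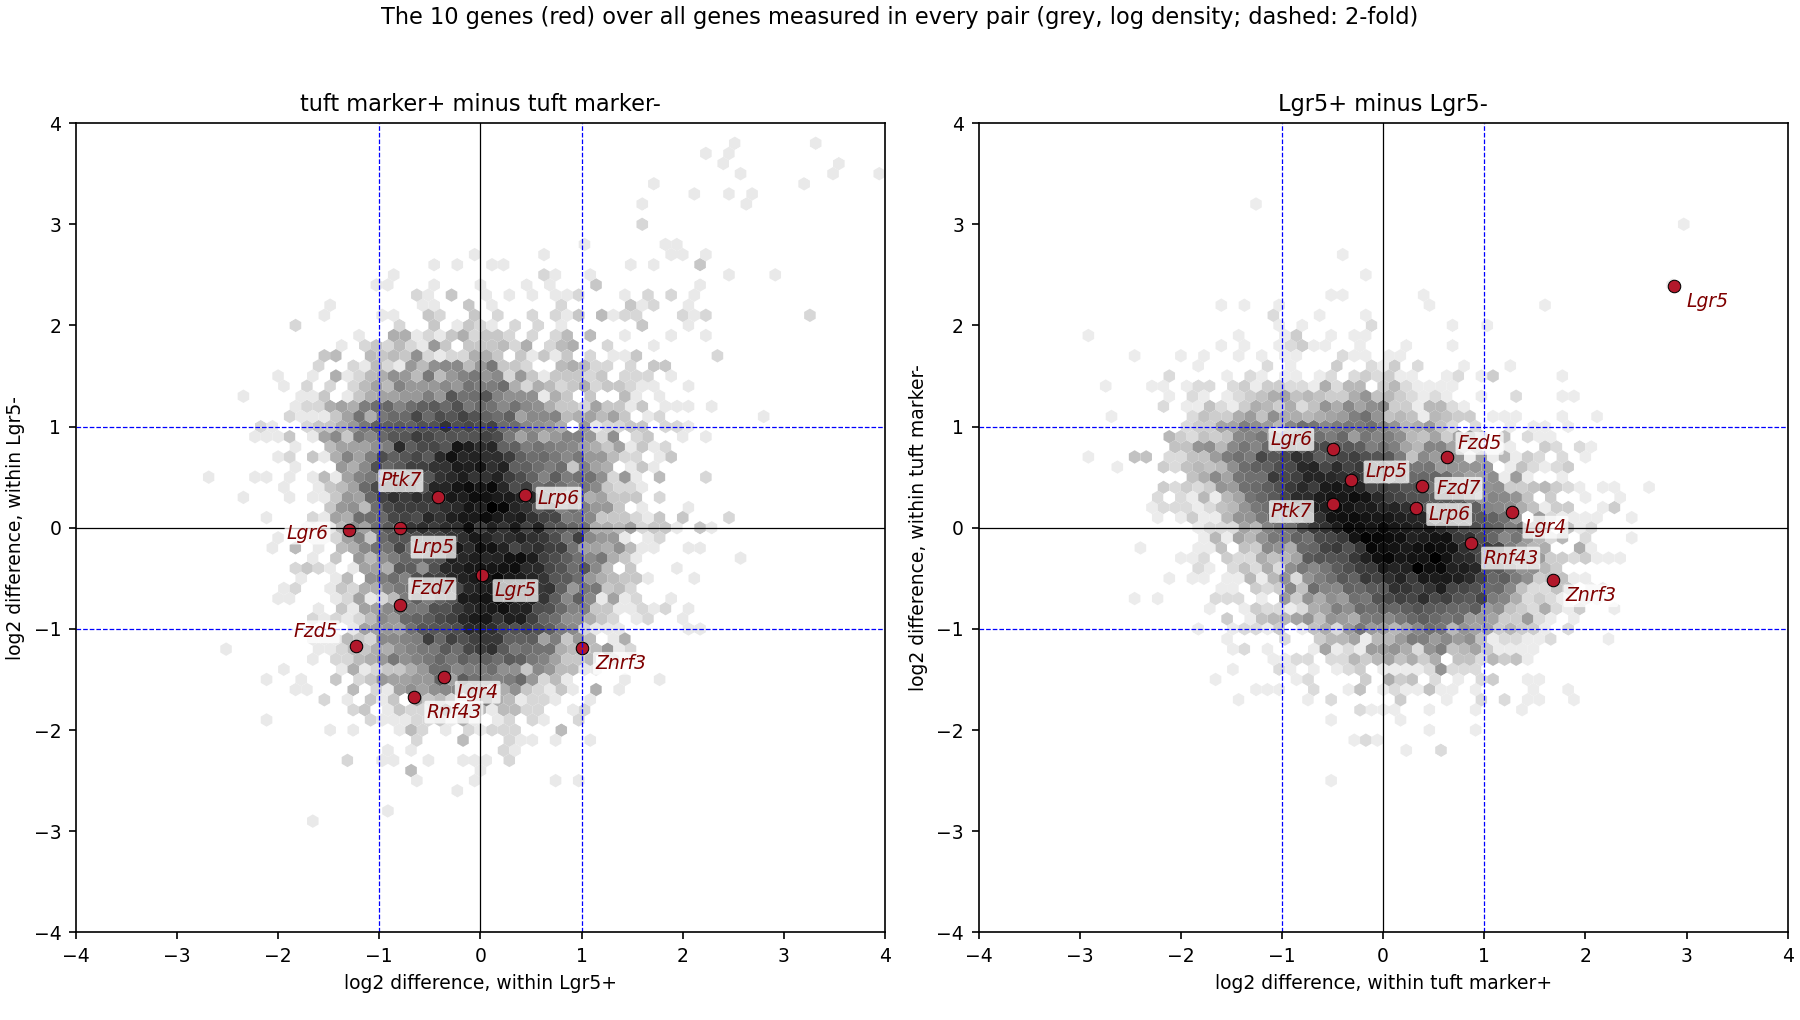
Difference in one pair against the difference in the other pair for the tuft marker (left) and for Lgr5 (right), both axes in log2, with the 10 genes named over the 16263 genes measured in every pair (grey); 140 and 14 genes beyond 4 on either axis are not drawn. Fzd5 lies in the lower left of the tuft marker panel and Lgr5 in the upper right of the Lgr5 panel; relative to epithelial markers all points shift together by -0.15 and 0.79 on the left and by -0.61 and 0.33 on the right.

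The plot of one pair against the other gives both differences of each member. So few members passed 2-fold in both pairs that no rate can be read from them. For the tuft marker, 1 gene was lower in both pairs (Fzd5; 1.40% of the 16757 genes measured in both) and 1 passed 2-fold in opposite directions (Znrf3; 2.69%), and no member was higher in both, where 4.76% of genes were. For Lgr5, Lgr5 alone was higher in both pairs (0.721% of 16497 genes), no member was lower in both and none passed 2-fold in opposite directions, where 0.582% and 2.49% of genes did.

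Across the 4 populations the 9 members above background on all arrays had a median range of 1.30 on the log2 scale, from 0.49 for Ptk7 to 1.86 for Fzd5. The median range of all 14055 genes above background on all arrays was 0.94. Ranges of at least 2-fold were found for 66.7% of these members and 45.0% of these genes. Of these 9 members, 5 had their highest level in Lgr5 single-positive cells (Lgr4, Lgr6, Lrp5, Fzd5 and Fzd7), as did 18.6% of these genes. Lgr4 and Fzd7 were there within 2 scanner errors of the double-negative cells. None of the members had its lowest level in Lgr5 single-positive cells, where 20.9% of these genes did. The lowest level fell in tuft single-positive cells for 5 (Lgr4, Rnf43, Znrf3, Fzd5 and Fzd7), as it did for 34.0% of these genes. Fzd7 was there within 2 scanner errors of the double-positive cells, and relative to epithelial markers it was no longer lowest there.

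Markers of other cell types moved along the same axes. The median difference of 15 myeloid genes with the tuft marker was 3.08 within Lgr5+ and 4.12 within Lgr5- cells, and that of 12 stromal genes was 2.66 and 3.25 over those measured. All 15 myeloid genes were well above background in both tuft marker+ populations, 12 were in Lgr5 single-positive cells, where Adgre1, C1qa and C1qc were not, and 14 in double-negative cells. The summed scaled signal of the myeloid list ranged from 745 to 809 in the tuft marker+ and from 543 to 616 in the tuft marker- populations, and that of the stromal list was 41.6 and 64.7 against 33.2 and 42.1, so the stromal ranges met. Lum, Pdgfra and Pdgfrb, which define fibroblasts and mural cells, were above background only in the tuft single-positive cells. The tuft cell list, which shares the sorting marker, had medians of 3.43 and 3.72. Endothelial, T and NK cell, and B and plasma cell lists had medians of 1.13, 1.20 and 1.33 within Lgr5- cells and of -0.80, -0.13 and 0.21 within Lgr5+ cells. The part of these cells in the lower Lgr4, Rnf43, Fzd5 and Fzd7 levels was not tested.

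Epithelial genes were lower by their median in the same population, with a median tuft marker difference of -0.85 within Lgr5- cells and 0.14 within Lgr5+ cells. Within Lgr5- cells the single epithelial genes disagreed, from -1.88 to 1.58, with 4 at least 2-fold lower and 1 at least 2-fold higher. Relative to them, the differences within Lgr5- cells were -0.68 for Lgr4, -0.88 for Rnf43, -0.40 for Znrf3 and -0.38 for Fzd5, all under 2-fold, that of Fzd7 became 0.03, and those of Lrp6 and Ptk7 became 1.11 and 1.10. Within Lgr5+ cells, where the single epithelial genes ranged from -0.98 to 1.64, Fzd5 was -1.38 and Lgr6 -1.45 relative to them. Paneth and goblet genes, which mark secretory cells of the crypt, were higher with Lgr5: medians of 2.01 and 1.94 for 8 Paneth genes, and 1.68 and 0.84 for 8 goblet genes, in tuft marker+ and tuft marker- cells. Enterocyte genes had medians of 0.90 and -1.14 there. Along the tuft marker, on which Lgr4, Rnf43, Fzd5 and Fzd7 were lower, the median of the goblet genes was -1.07 in the Lgr5+ class and -1.55 in the Lgr5- class, with 4 of 8 and 8 of 8 at least 2-fold lower. Paneth genes had medians of -0.38 and -0.64 along that axis, and enterocyte genes 1.95, with 7 of 9 at least 2-fold higher, and 0.03. The part of these cell types in the levels of Fzd5 and the other members was not tested.

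Of the 4 R-spondin genes, Rspo4 was the one well above background on all arrays, with levels of -0.84, -0.11, -0.79 and -0.91 in double-positive, Lgr5 single-positive, tuft single-positive and double-negative cells. Rspo1 was above background only in tuft single-positive cells, Rspo3 only in Lgr5 single-positive cells and Rspo2 on no array. Of 19 Wnt ligand genes 13 were above background on some array. With the tuft marker within Lgr5+ cells, none of 13 measured was at least 2-fold higher and 2 were lower, where 10.3% and 8.19% of all genes were. Within Lgr5- cells 3 of 12 measured were higher and none was lower, where 16.4% and 12.2% of all genes were. Wnt10b, a canonical Wnt ligand, had the largest of these differences, with levels of -0.69, -0.68, 0.15 and -1.99, so that tuft single-positive cells were 2.14 ± 0.23 above double-negative cells.

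Among the receptors outside the 10 genes, Fzd6, a Frizzled receptor of planar polarity, showed the largest contrast. It read -0.51, -0.47, -3.30 and -1.28, so it was low in both Lgr5- populations and lowest in the tuft single-positive cells. The tuft marker difference was -2.02 ± 0.35 within Lgr5- and -0.04 ± 0.21 within Lgr5+ cells, and Lgr5+ cells were 2.79 ± 0.35 above Lgr5- cells among those with the tuft marker. Of 8 other Frizzled genes 6 were above background on some array. Fzd9 was above background only in the Lgr5- populations, at -2.30 and -2.61. With Lgr5 it was lower by no less than 2.18-fold among tuft marker+ cells and 2.39-fold among tuft marker- cells. Gpc3, a membrane glypican, read 1.90, 0.96, 1.32 and 2.75, and was 1.79 ± 0.20 higher in double-negative than in Lgr5 single-positive cells.

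The receptor-level Wnt antagonists that were 2-fold apart along the tuft marker were higher with it. Of 18 genes, 10 were above background on some array. Within Lgr5+ cells 2 of 9 measured were at least 2-fold higher with the tuft marker and none was lower, and within Lgr5- cells 4 of 10 were higher and none was lower, where 10.3% and 16.4% of all genes were higher. These counts are too small to set the list apart. Dkk3, a member of the Dickkopf family, read -2.79 in double-positive and -1.23 in tuft single-positive cells, against -3.65 in double-negative cells and not above background in Lgr5 single-positive cells. Tpbg, the Wnt inhibitor also known as the trophoblast glycoprotein, was above background only in the tuft marker+ populations, at -2.45 and -2.33, no less than 2.67-fold above their tuft marker- counterparts in the Lgr5+ and 2.62-fold in the Lgr5- class. Relative to epithelial markers the differences shift by -0.15 within Lgr5+ cells, which takes Dkk3 under 2-fold there. The stromal marker list was higher in these populations, as given above, and its part was not tested.

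Beta-catenin target genes differed from each other in where they peaked. Of 15 such genes, 1 was at least 2-fold higher and 1 lower with the tuft marker within Lgr5+ cells, and 1 was higher and 5 of 14 were lower within Lgr5- cells (Axin2, Ascl2, Sp5, Tcf7 and Ccnd1, all 5 named for this count after their values were seen). Over all genes the shares were 10.3% and 8.19% within Lgr5+ cells and 16.4% and 12.2% within Lgr5- cells. With Lgr5, 4 were higher and none lower among tuft marker+ cells, and 3 were higher and 2 lower among tuft marker- cells, beside 8.86%, 11.4%, 6.5% and 5.24% of all genes. Nkd1, a feedback inhibitor of Wnt signalling, was above background only in the Lgr5+ populations, at -1.62 and -2.53. Double-positive cells had no less than 4.14-fold more than tuft single-positive cells, and Lgr5 single-positive cells no less than 2.27-fold more than double-negative cells. Smoc2, an Lgr5 stem cell signature gene, read -0.83, 0.01, -2.48 and -1.56, and was 1.66 ± 0.25 and 1.57 ± 0.22 higher with Lgr5. Ascl2, a stem cell transcription factor, read -3.09, -1.93, -2.39 and -1.36, and was lower with the tuft marker by 2.23-fold and 2.05-fold. Prox1, a homeobox transcription factor, was lowest in double-negative cells, at -2.31, against -1.17, -0.64 and -0.96 elsewhere.

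Signal transducers next to the receptor were above background on all arrays for 11 of 11 genes. Daam1, a formin that links Dishevelled to the cytoskeleton, was the one of these at least 2-fold apart within Lgr5+ cells, at 0.16 in double-positive and -1.18 in Lgr5 single-positive cells, a difference of 1.34 ± 0.21. Over the 8 lists of other pathway genes together, 4 of 70 measured genes passed 2-fold upward and 4 downward with the tuft marker within Lgr5+ cells, and 11 and 9 of 74 were within Lgr5- cells. With Lgr5 they were 6 and 6 of 73 among tuft marker+ cells and 5 and 5 of 71 among tuft marker- cells. As shares these were 5.71%, 14.9% higher and 12.2% lower, 8.22% and 7.04%, to be read beside the shares over all genes given above.

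**Figure D4:**
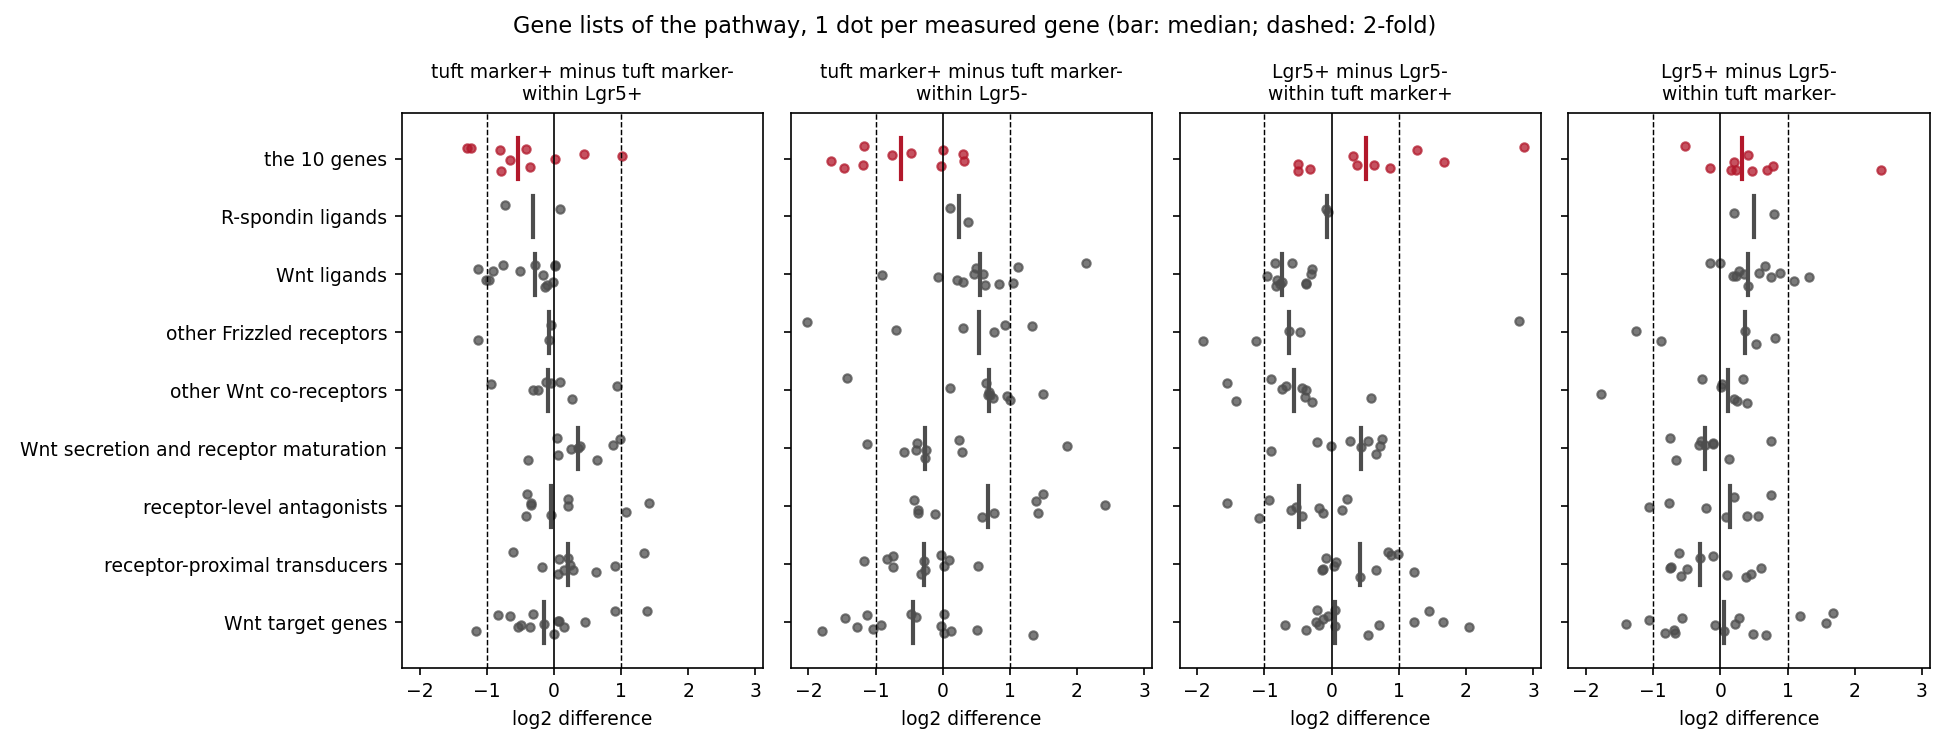
Differences (log2, each point 1 gene) of the 10 genes (red) and of the 8 lists of other Wnt and R-spondin pathway genes in the 4 comparisons, with the median of each list as a bar. Antagonists spread upward with the tuft marker within Lgr5- cells, with 4 of 10 at least 2-fold higher; relative to epithelial markers every point of that comparison is 0.79 higher.

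The plot of the lists shows the wide spread inside each list, so a list's median says little of its single genes. The patterns of the members could be matched by many other genes. Likeness was the root of the summed squared difference between the 4 levels after subtraction of each gene's own mean, over 4 arrays. Within a distance of 0.5 lay 342 of 14054 genes for Lgr4, 386 for Rnf43, 549 for Lgr6, 304 for Znrf3, 106 for Fzd5 and 659 for Fzd7. The gene nearest to Lgr4 was 2210407C18Rik at 0.08, that nearest to Rnf43 was R3hcc1 at 0.09, and that nearest to Lgr6 was Nodal at 0.06. For Znrf3 it was Ngly1 at 0.10, for Fzd5 Myrf at 0.11 and for Fzd7 Slc25a37 at 0.04. Lrp5, Lrp6 and Ptk7, with ranges under 2-fold, were not matched. Lgr5 was left out, since its level in tuft single-positive cells is only a bound. Among the members themselves the closest pairs were Lgr6 with Lrp5 at 0.36, Lrp5 with Ptk7 at 0.40, Lgr4 with Rnf43 at 0.44 and Fzd5 with Fzd7 at 0.50. Genes with small ranges lie close by this measure whatever their order. Lrp5 and Ptk7 had ranges of 0.79 and 0.49, and their highest levels were in different populations.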

How the data were processed

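RNA of 4 sorted populations was measured on 1 Agilent one-colour array each. Per the file headers, Feature Extraction 12.0.3.1 subtracted background from each spot's intensity; per the submitters' processing notes the software was version 11.5.1.1, and which of these gave the values is not settled. The deposited files also hold 0 or 1 flags, a score for spots well above background and for outliers. The authors' deposited table holds the same intensity multiplied by 1 constant per array; its columns are linear and not centred, their medians are 279, 286, 365 and 253 (double-positive, Lgr5 single-positive, tuft single-positive, double-negative), and what the scaling was meant to do is unknown.

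Control and outlier spots were left out (the 75th percentile used all non-control spots), and log2 of the processed intensity minus that percentile was taken. No spot was saturated. Of 56605 probes, 32994 were named through their transcript accession and the RefSeq gene table of GRCm38.p6, giving 22911 genes; the array grid was annotated on an older build, so no gene coordinates from it are used. A difference was measured where a gene was well above background in at least 1 of the 2 populations; a dim side was set at the array's lowest level well above background, or its own if higher, and the fold written as "at least". The scripts were tested on simulated data with known differences.

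The members, the pathway lists and the marker lists were chosen with earlier results of these data known. Other pathway genes were named if at least 2-fold apart in the same direction in both pairs of an axis, or among the 3 largest differences of a comparison with both sides above background. Alternatives were other scalings and background corrections (normexp in limma 3.58.1, offset 50), other probe rules, other detection rules and other fold limits. The planned normexp setting used the median signal because the files used here have no mean signal column, and the planned gene-name matching and protein alignment were not run because no such column or table was used here. R 4.3.3, Python 3.11.15, numpy 2.4.6, pandas 2.3.3 and matplotlib 3.10.9 were used.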

Additional observations from a re-analysis of the deposited data

Results flagged for a closer look

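Znrf3 and Sp5 had differences of opposite direction in the 2 classes of the other marker, each at least 2-fold; the difference between the classes was not tested, since each value rests on 1 array per population. Znrf3 (brightest probe) was 1.01 higher with the tuft marker within Lgr5+ cells and had a difference of -1.19 within Lgr5- cells, 2.20 ± 0.33 (scanner error) apart on the log2 scale, and its other 2 probes do not show this. Sp5, a beta-catenin target and transcription factor, had 1.39 and -1.12 with the tuft marker, and 1.45 and -1.07 with Lgr5 among tuft marker+ and tuft marker- cells. Both Sp5 contrasts come to the same 2.51 ± 0.38, because they are the same 4 levels (-1.15, -2.54, -2.60 and -1.47) taken in 2 ways. Relative to epithelial markers the 2 Znrf3 differences became 0.86 and -0.40, both under 2-fold. That scaling shifts the tuft marker differences by -0.15 and 0.79 and the Lgr5 differences by -0.61 and 0.33. Of the Sp5 differences, only that with the tuft marker within Lgr5+ cells then stays past 2-fold, so both contrasts are smaller.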

How the results depend on the processing

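Of 480 member differences recomputed over 12 alternatives, 378 moved by less than the scanner error and 99 by more. The other 3, all of Znrf3, had been at least 2-fold and changed sign. Part of the 378 could not have moved. Leaving out the detection filter changes no difference, and the other detection rule and the removal of the floor reach only levels near background. The probe rules leave every gene with 1 probe unchanged. Within Lgr5+ cells the Znrf3 difference became -0.93 with the mean of all probes and -0.29 with the dimmest probe. Within Lgr5- cells it became 0.050 with the dimmest probe, which was not above background in either of those populations. Sign changes of differences under 2-fold were counted only by their size. An example is Fzd7 within Lgr5- cells, which went from -0.76 to 0.03 with epithelial scaling. The dimmest probe, the epithelial scaling and normexp with the 75th percentile were chosen after seeing the data. The counts of members at least 2-fold apart changed by over 1.5 times as follows; apart from fold limits and probe rules, the cause was not tested. With the tuft marker within Lgr5+ cells, the count higher became 0 with both normexp settings, the mean of all probes, the dimmest probe, epithelial scaling and a 3-fold limit, and the count lower became 1 with the mean of probes or the dimmest probe, 5 at 1.5-fold and 0 at 3-fold. Within Lgr5- cells the count lower became 2 with the deposited values, normexp and quantile normalization or the dimmest probe, 1 at 3-fold and 0 with epithelial scaling, which also gave 2 higher (Lrp6 and Ptk7). Among tuft marker+ cells the count higher with Lgr5 became 5 at 1.5-fold and 1 with the dimmest probe, and the count lower 2 (Lgr6 and Ptk7) with epithelial scaling. Among tuft marker- cells the count higher became 0 with both normexp settings and 3 at 1.5-fold or with epithelial scaling. Lgr6 within Lgr5+ cells (-1.45 to -1.05) and Lgr5 among tuft marker+ cells (1.10 to 5.05) passed 2-fold in 12 of 12 alternatives that keep that limit. Each has 1 probe, so the probe rules could not change either value. Lgr6 was above background on all arrays, so the detection rules could not change its value. The Lgr5 gate itself set the direction of the Lgr5 difference. Of all genes called, the share higher was 55.8%, 57.3%, 43.8% and 55.4% in the 4 comparisons; it moved by over 10 percentage points to 40.2% (epithelial), 74.4% (normexp and quantile) and 70.4% (normexp with the 75th percentile) in the first, 37.2% (median), 79.6% (deposited) and 96.0% (epithelial) in the second, 66.9% (median), 28.0% (deposited), 6.51% (epithelial) and 54.1% (quantile) in the third, and 41.6% (median) and 86.1% (epithelial) in the fourth. With normexp and quantile normalization the counts over all genes within Lgr5+ cells were 598 higher and 206 lower, against 1806 and 1433. Scaling to the median moved the median of all genes to 0.13, -0.24, 0.26 and -0.14, the deposited values moved it to 0.29 within Lgr5- cells, and epithelial scaling to 0.78 there. No paired analysis was possible because each population has 1 array and the labels carry no replicate numbers. Leaving out an array, matching by gene name and protein alignment were not run. Signal over background limits Lgr5 in tuft single-positive cells and 2 of the 3 Znrf3 probes, and 1 array per population limits every value.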

Other observations

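Axin2, the feedback scaffold of the beta-catenin destruction complex, and Ccnd1, the cell cycle cyclin D1, were picked after their values were seen from the 5 target genes at least 2-fold lower with the tuft marker within Lgr5- cells. Axin2 read 0.02 in double-positive, -0.45 in Lgr5 single-positive, -1.21 in tuft single-positive and 0.24 in double-negative cells. It was 2.73-fold lower with the tuft marker within Lgr5- cells, and 0.46 higher on the log2 scale within Lgr5+ cells. Ccnd1 read 1.14, 0.98, 0.60 and 2.39, so its highest level was in double-negative cells, 3.47-fold above tuft single-positive cells. Relative to epithelial markers each difference within Lgr5- cells is 0.79 higher, as for the receptors.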
